A study of Drosophila melanogaster with 6 samples.

Results

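The mitochondrial ribosomal protein genes of Drosophila melanogaster were followed in ovary RNA with and without overexpression of Sam-S in the germline. The genes were chosen by name, as the rows of the deposited table whose gene symbol starts with mRpL or mRpS, and 73 of the 17457 rows met this rule. By the letter of the symbol, 47 were large subunit genes and 26 were small subunit genes. All 73 had a mean of at least 1 TPM over the 6 samples (a level corrected for transcript length and for the total of its sample), so all 73 were tested.

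Ovary polyA RNA was sequenced in 3 samples with Sam-S overexpression and 3 control samples. In the overexpression samples the germline driver nanos-gal4 switched on a UASp-Sam-S transgene, which encodes S-adenosylmethionine synthetase. Control females had the same driver, brought together with a docking site that held no construct. The age of the flies and the number of ovaries in a sample are not given in the sources used here. The driver acts in germline cells, whereas the RNA came from whole ovaries with their somatic follicle and muscle cells, and fewer cells of a type and less RNA per cell cannot be told apart in such samples.

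The mitochondrial ribosome translates the few proteins encoded by mitochondrial DNA, which are core subunits of the respiratory chain and the ATP synthase. All of its proteins are encoded in the nucleus, made in the cytosol and imported, and they assemble on RNAs made inside the mitochondrion. The small subunit decodes the messenger RNA and the large subunit forms the peptide bond. In the fly ovary mitochondria multiply in the germline, because the egg passes its mitochondria on to the embryo. Some of these proteins have bacterial counterparts and keep the bacterial number, while those with higher numbers are mostly additions of mitochondria.

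Sam-S averaged 1518 ± 67.5 TPM with overexpression and 497.5 ± 14.5 TPM in controls (SD, n = 3 each). Pearson's r of log2(TPM + 1) across the 7855 tested features lay between 0.984 and 0.993 for pairs of samples, and genes are not independent replicates. The summed level of 6 germline markers, which include vas, nos and osk, was 1705 to 1764 TPM with overexpression and 1648 to 1672 TPM in controls. For 5 follicle cell markers it was 6082 to 10488 TPM with overexpression and 6895 to 8266 TPM in controls. For 3 muscle markers it was 43.05 to 61.7 TPM with overexpression and 39.9 to 57.3 TPM in controls. Markers of testis, neurons, haemocytes and larval fat body each stayed at or under 0.48 TPM. The germline sums, of which osk was the largest part, did not overlap between the groups, and 0 of the 6 markers were called. With overexpression osk averaged 1041 TPM, against 954.6 TPM in controls, and osk, grk and aub, 3 of the 6, had an unadjusted limma p under 0.05 and a positive log2 fold change, where 6.58% of all tested features had such a p in either direction. The values of vas and nos lay the other way, with 268.04 TPM for vas and 267.7 TPM for nos with overexpression, against 286.7 TPM for vas and 274.5 TPM for nos in controls. Of the testis markers, dj and ProtA were listed at 0 in all samples. The part of these differences in the values of the ribosomal protein genes was not tested.

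The 73 genes were expressed in every sample, within a narrow band. Their mean level over the 6 samples had a median of 80.6 TPM, with quartiles of 69.6 and 92.05 TPM. Of the 73 genes, 69 lay within 2-fold of that median. The SD of the log2 mean level across the genes was 0.52, against 1.02 for 85 tested cytosolic ribosomal protein genes, 1.06 for 57 tested nuclear genes of oxidative phosphorylation and 2.17 for all tested features. Of the 85 cytosolic genes, 77 lay within 2-fold of their own median, or 90.6%, beside 94.5% of the 73. For the 57 oxidative phosphorylation genes it was 36, and for all tested features 47.3%. Among all tested features the 73 genes stood between the 48.1 and the 96.1 percentile of level. Together they held 0.631%, 0.649% and 0.658% of all TPM in the overexpression samples, against 0.666%, 0.647% and 0.664% in the controls. The cytosolic ribosomal proteins held 24.9% ± 0.86 of TPM with overexpression and 23.8% ± 1.29 in controls (SD, n = 3 each).

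**Figure D1:**
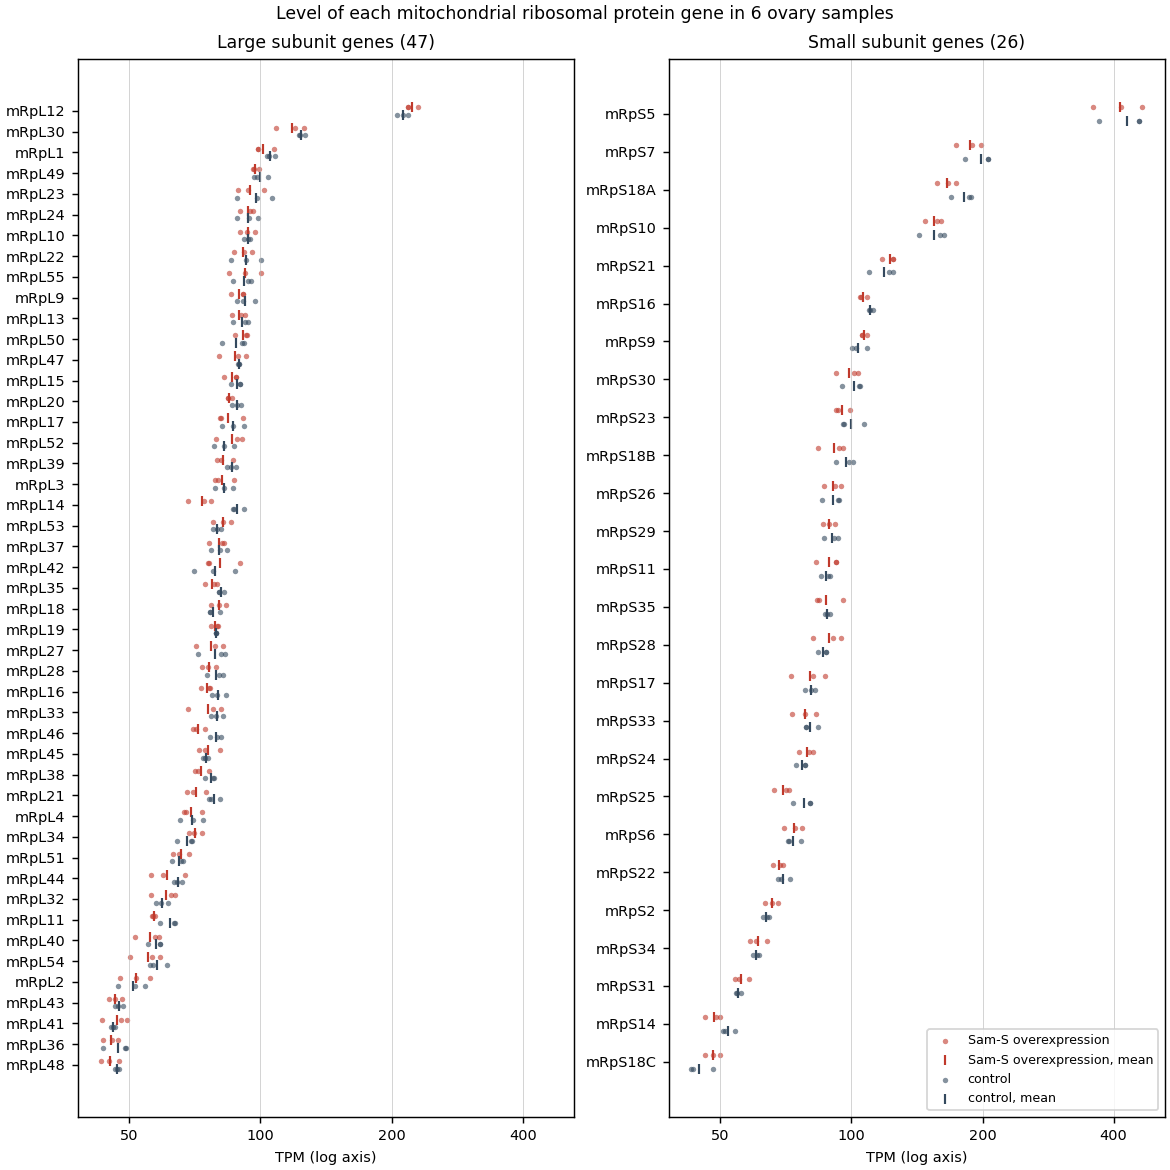
TPM on a log axis for each of the 73 genes, large subunit on the left and small subunit on the right, ordered by mean level; points are samples and ticks are group means, with Sam-S overexpression above control in each row. Of the 73 genes, 69 lie within 2-fold of the median of 80.6 TPM, and mRpS5, mRpL12, mRpS7, mRpS18A and mRpS10 have the highest means.

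Of the 6 genes with the highest means, 4 are small subunit genes by name. The highest was mRpS5 (FBgn0044510, 3L:24537236-24543534, plus strand), a protein of the mRNA entrance of the small subunit, at 5.22 times the median of the 73. It had 358.97, 416.56 and 464.87 TPM in the overexpression samples, against 456.71, 370.25 and 457.65 TPM in the controls. The groups overlapped, and the lowest value of each group came from overexpression sample 1 and control sample 2. The standard error of its log2 fold change, 0.11, was the largest of the 73, against a median of 0.06. The log2 fold change was -0.05 with a 95% interval from -0.31 to 0.20 (limma, adjusted p = 0.970). Without overexpression sample 1 it was 0.05.

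The second was mRpL12 (FBgn0011787, 3L:8956791-8957584, plus strand), which forms the flexible stalk that recruits translation factors and is present in several copies in each ribosome. It was at 2.70 times the median. Its values were 218.70, 218.69 and 229.72 TPM with overexpression, against 218.17, 205.57 and 213.03 TPM in controls. It was the only one of the 73 whose overexpression values all lay above its control values, where the smallest gap was between 218.69 and 218.17 TPM. The log2 fold change was 0.07 (SE 0.05, limma adjusted p = 0.909) and did not pass the threshold.

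The next 3 were mRpS7, mRpS18A and mRpS10. The protein of mRpS7 binds the head of the small subunit RNA. It had 173.49, 189.33 and 198.20 TPM with overexpression and 205.48, 182.17 and 206.39 TPM in controls. In mRpS18A the values were 157.52, 166.82 and 174.01 TPM with overexpression and 188.59, 168.85 and 185.90 TPM in controls. In mRpS10, another protein of the head, they were 147.73, 157.20 and 160.20 TPM with overexpression and 162.91, 142.76 and 159.57 TPM in controls. The sixth was mRpL30, at 108.43, 125.61 and 119.83 TPM with overexpression and 123.35, 122.51 and 126.56 TPM in controls. In mRpS5, mRpS7 and mRpS10 the 2 lowest samples were overexpression sample 1 and control sample 2, which is 3 of the 4 most abundant small subunit genes. The same 2 samples were the lowest for 12 of the 73 genes (16.4%) and for 32.2% of all tested features.

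Those 2 samples were also the ones in which the cytosolic ribosomal proteins held most of the TPM. Their share was 25.9%, 24.3% and 24.5% in overexpression samples 1, 2 and 3, against 23.3%, 25.2% and 22.8% in control samples 1, 2 and 3. All TPM columns have the same total. The eggshell gene Vm26Aa, a marker of follicle cells, was also highest in these samples within each group, with 7266, 4675 and 3994 TPM in overexpression samples 1, 2 and 3, against 5057, 5916 and 4874 TPM in control samples 1, 2 and 3. Within each group the other follicle cell markers, tj, Yp1, Fas3 and slbo, were also highest in the same 2 samples, with slbo at or under 1.19 TPM. The part of these levels in the values of the mitochondrial genes was not tested.

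**Figure D2:**
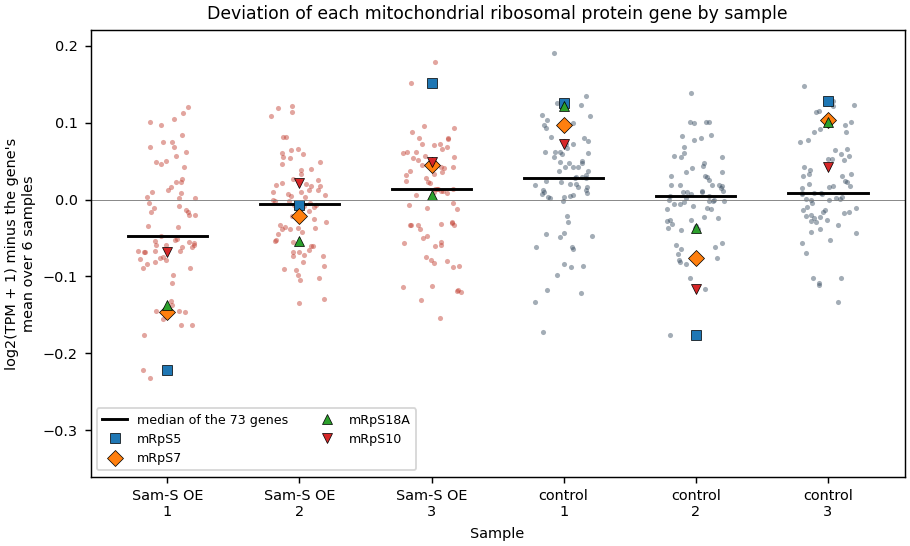
For each of the 73 genes and each sample, log2(TPM + 1) minus the gene's mean over the 6 samples; black bars are medians over the genes and marked symbols are the 4 most abundant small subunit genes. The median was -0.05 in overexpression sample 1 and between -0.01 and 0.03 in the 5 others, and mRpS5, mRpS7 and mRpS10 had their 2 lowest values in overexpression sample 1 and control sample 2.

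The lowest level was that of mRpL48 (FBgn0031357, 2L:1710462-1711465, plus strand), with 47.37, 43.10 and 44.89 TPM with overexpression and 47.36, 46.28 and 46.96 TPM in controls. The others of the lowest 6 were mRpL36, mRpL41, mRpS18C, mRpL43 and mRpS14, with means over the 6 samples between 46.3 and 50.2 TPM. The ranges of the lowest 5 over the 6 samples all overlap, so their order is not fixed by these samples. No gene of the 73 was listed at 0 in any sample, and the lowest single value was 42.89 TPM, in mRpS18C.

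By class, the small subunit genes with bacterial numbers reached highest. They numbered 14, with a median of 99.6 TPM and a range from 46.4 to 420.8 TPM. The 12 small subunit genes with higher numbers ranged from 55.3 TPM in mRpS31 to 100.1 TPM in mRpS30, with a median of 83.3 TPM. The 28 large subunit genes with bacterial numbers had a median of 80.0 TPM, between 46.3 TPM in mRpL36 and 217.3 TPM in mRpL12. The 19 with higher numbers had a median of 75.5 TPM, between 46.0 TPM in mRpL48 and 98.5 TPM in mRpL49. The letters of the symbols are historical. In mammalian mitochondrial ribosomes the proteins that correspond to mRpS18A and mRpS30 sit in the large subunit.

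The 3 mRpS18 genes, relatives of a single bacterial protein, were expressed at unequal levels. On the TPM scale mRpS18A averaged 166.1 ± 8.27 with overexpression and 181.1 ± 10.7 in controls (SD, n = 3 each). The level of mRpS18B was 90.99 ± 6.27 TPM with overexpression and 97.3 ± 4.33 TPM in controls (SD, n = 3 each). The level of mRpS18C was 48.06 ± 1.89 TPM with overexpression and 44.8 ± 2.96 TPM in controls (SD, n = 3 each). The order A over B over C held in all 6 samples, with no overlap between the genes. Their log2 fold changes were -0.12, -0.10 and 0.10 in that order, and the adjusted p in limma was 0.829, 0.908 and 0.906.

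The design asks how ovary RNA changes with more Sam-S in germ cells. Each gene's difference was taken from a limma fit of log2(TPM + 1) over all 7855 tested features, where an adjusted p under 0.05 was called. None of the 73 mitochondrial ribosomal protein genes was called (0 of 73), where 22 of all tested features were, or 0.28%. The lowest adjusted p among the 73 was 0.258, in mRpL14. The authors' deposited table, made from the same samples, had 0 of the 73 with an FDR under 0.05, where 0.699% of all rows had one, and its lowest FDR among the 73 was 0.485, also in mRpL14.

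The intervals were narrow. All 73 lay within a log2 fold change of 0.5 in either direction, from -0.41 in mRpL14 to 0.26 in mRpL42, and 65 lay within 0.25. The median distance from the estimate to a bound was 0.13. The smallest absolute log2 fold change that was called anywhere in the table was 0.39.

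**Figure D3:**
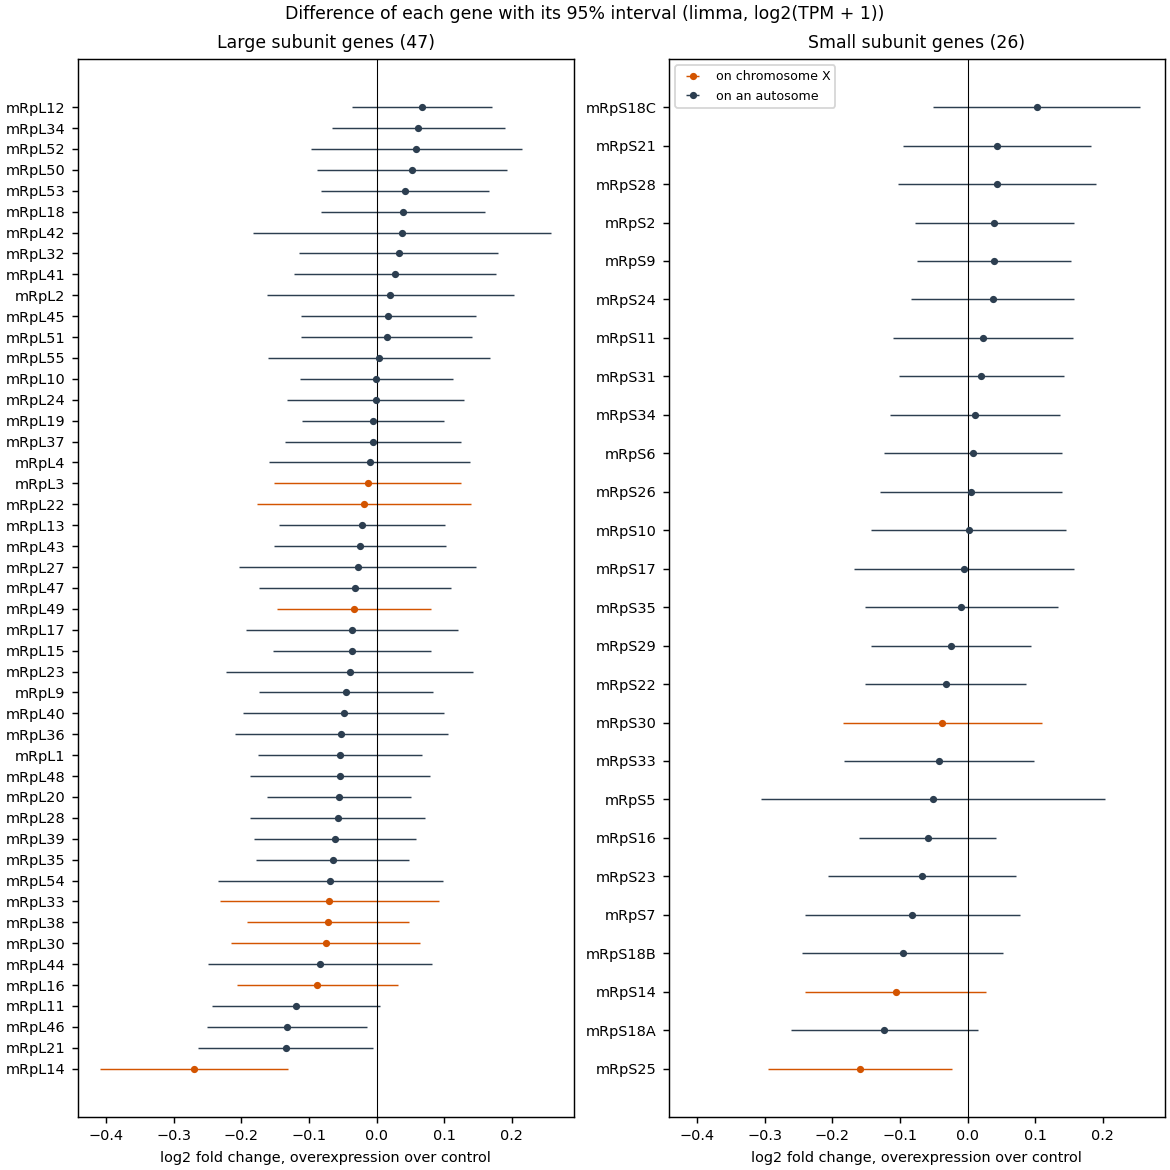
Log2 fold change on the log2(TPM + 1) scale, overexpression over control, with 95% intervals from limma for 47 large subunit genes and 26 small subunit genes, ordered by value; genes on chromosome X are in orange. The intervals, not adjusted for the number of tests, lie wholly below 0 for mRpL14, mRpS25, mRpL21 and mRpL46 and include 0 for the other genes.

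By the sign of the log2 fold change on the log2(TPM + 1) scale, which sets all counts of higher and lower genes given here, 48 genes were lower with overexpression and 25 higher, with a median of -0.02. In mRpS10 and mRpL10, both near 0, the difference of the mean TPM had the opposite sign. Over all tested features 55.96% were lower and the median was -0.01. Under quantile normalization 39 of the 73 were lower and 34 higher, and with trimmed mean scaling 41 were lower and 32 higher. Of all tested features 52.4% were lower under quantile normalization and 50.6% with trimmed mean scaling. Without overexpression sample 1 the median was -0.01 for the 73 and 0.01 for all tested features. For the 47 large subunit genes the median was -0.03 and 34 were lower, and for the 26 small subunit genes it was -0.01 and 14 were lower. The cytosolic ribosomal proteins had a median of 0.07 with 2 of 85 lower, and under quantile normalization 0.03 with 15 lower. The oxidative phosphorylation genes had a median of -0.02 with 38 of 57 lower, and under quantile normalization 0.00 with 27 lower. None of these genes was called, 0 of 85 and 0 of 57. The summed level of the 73 was 6460 ± 136.9 TPM with overexpression and 6589 ± 107.1 TPM in controls (SD, n = 3 each), a ratio of 0.980.

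At an unadjusted p under 0.05 there were 4 of the 73, or 5.48%, where 6.58% of all tested features had one. With the batch number as a block there was 1, mRpL14. All 4 of the main fit had a negative log2 fold change, where 2.97% of all tested features had a negative one and such a p. Under quantile normalization there were again 4, but mRpL12 and mRpS18A stood in place of mRpL21 and mRpL46. The log2 fold change of mRpL12 was then positive, at 0.10 (limma, unadjusted p = 0.0219). In 10 of the 73 genes (13.7%) the values of the groups did not overlap, where 11.9% of all tested features had none. Of these 10, 9 were lower with overexpression (12.3%), where 5.6% of all tested features were lower without overlap. The remaining 1 was mRpL12, where 6.25% of all tested features were higher without overlap.

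The gene with the largest difference was mRpL14 (FBgn0040389, X:2343997-2344649, minus strand), a protein of the interface between the subunits. It had 68.29, 77.09 and 74.30 TPM with overexpression, against 91.88, 86.33 and 87.06 TPM in controls. The groups did not overlap, and the highest overexpression value was 77.09 TPM where the lowest control value was 86.33 TPM. The ratio of the means was 0.828, and the log2 fold change was -0.27 (SE 0.06, limma adjusted p = 0.258). Batch by batch it was -0.42 in batch 1, -0.16 in batch 2 and -0.23 in batch 3. In the authors' deposited table its log2 fold change was -0.25, with a p-value of 0.00886. It was the only one of the 73 with a p-value under 0.05 in the authors' deposited table, where 4.24% of all rows had one.

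The others were mRpS25, mRpL46 and mRpL21. The small subunit protein gene mRpS25 (FBgn0030572, X:14582136-14582982, minus strand) had 66.48, 71.77 and 70.57 TPM with overexpression and 80.24, 73.25 and 80.16 TPM in controls. Its highest overexpression value, 71.77 TPM, lay just under its lowest control value, 73.25 TPM. The log2 fold change of mRpS25 was -0.16 (SE 0.06, limma adjusted p = 0.625). An annotated exon of CG14414 on the other strand overlaps it, and whether the counting used strand is not given in the sources used here. The large subunit gene mRpL46 (FBgn0035272, 3L:1777439-1778347, plus strand) had 74.52, 70.18 and 71.12 TPM with overexpression and 81.01, 76.39 and 79.58 TPM in controls. The log2 fold change of mRpL46 was -0.13 (SE 0.05, limma adjusted p = 0.655). The large subunit gene mRpL21 (FBgn0036853, 3L:19253290-19255061, minus strand) had 70.15, 75.06 and 67.87 TPM with overexpression and 77.10, 76.32 and 80.69 TPM in controls. The groups did not overlap in mRpL46 or in mRpL21. For mRpL21 the log2 fold change was also -0.13 (SE 0.06, limma adjusted p = 0.738). None of the 4 passed the threshold under any setting tried, and the lowest adjusted p in any of them was 0.112, for mRpL14 with trimmed mean scaling.

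Among the other differences by size, mRpS18A had a log2 fold change of -0.12 and mRpL11 of -0.12. The protein of mRpL11 forms the base of the stalk. The level of mRpL11 was 56.73, 56.49 and 57.22 TPM with overexpression, against 63.55, 58.76 and 63.22 TPM in controls, and did not overlap (limma, adjusted p = 0.779). The largest positive values were 0.10 in mRpS18C, 0.07 in mRpL12, 0.06 in mRpL34, 0.06 in mRpL52, 0.05 in mRpL50 and 0.04 in mRpS21. Their adjusted p in limma lay between 0.906 and 0.954. Except in mRpL12, the values of the groups overlapped in each of these 6.

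The genes were spread over the chromosomes, with 11 on X, 12 on 2L, 12 on 2R, 17 on 3L, 21 on 3R and 0 on chromosome 4. The following split was chosen after the values were seen. All 11 genes on X had a negative log2 fold change, with a median of -0.07 and values from -0.27 in mRpL14 to -0.01 in mRpL3. Among the 1412 tested features on X, 754 (53.4%) were lower and the median was -0.01. The 11 genes were mRpL14, mRpS25, mRpS14, mRpL16, mRpL30, mRpL38, mRpL33, mRpS30, mRpL49, mRpL22 and mRpL3. Values without overlap were found in 4 of the 11, namely mRpL14, mRpS25, mRpS14 and mRpL16, all lower with overexpression. Of the tested features on X, 17.1% had no overlap and 7.93% were lower without overlap. Of the 11 genes 0 were called, where 13 of the 1412 tested features on X were. Under quantile normalization 9 of the 11 were lower, beside 48.4% of the tested features on X. When a sample was left out, between 9 and 11 were lower, beside 44.3% to 59.4% of the tested features on X. The median was -0.02 for the genes on 2L, 0.03 on 2R, -0.04 on 3L and -0.01 on 3R.

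**Figure D4:**
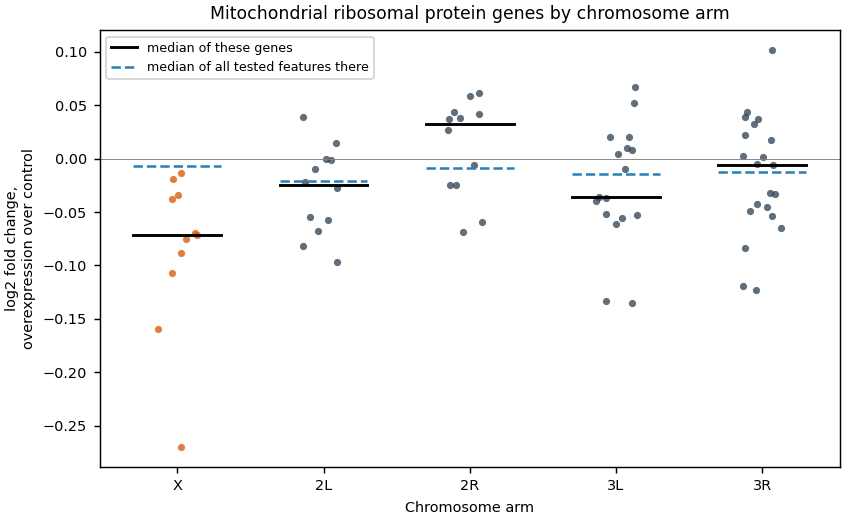
Log2 fold change on the log2(TPM + 1) scale, overexpression over control, of the 73 genes by chromosome arm; solid bars are medians of these genes and dashed bars are medians of all tested features on the arm. On X all 11 genes lie below 0 with a median of -0.07, beside -0.01 for all tested features there.

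The annotated genes are short, with longest transcripts of 327 to 2078 nucleotides and a median of 783 nucleotides in the Ensembl annotation. An exon of another gene overlapped 43 of the 73, on the other strand in 42 and on the same strand in 3. Among the 30 genes without an overlapping exon the median log2 fold change was -0.03 and 22 were lower, and among the 43 others it was -0.02 and 26 were lower. Group values lower with overexpression and without overlap were found in 3 of the 30 (10%) and 6 of the 43 (14.0%). The share over all tested features was 5.6%. The 6 include mRpL11, mRpS14, mRpL16 and mRpS25, and whether their counting used strand is not given. The genes were mostly scattered. Within 50000 bp of each other were mRpL24 and mRpL28 on 2L, 28614 bp apart, and mRpL3 and mRpS30 on X, 23383 bp apart.

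Proteins of the same ribosome are also encoded by genes with other symbols. The gene tko encodes the decoding protein S12 and bonsai encodes S15. On the TPM scale tko was at 109.3 ± 1.24 with overexpression and 110.0 ± 6.04 in controls (SD, n = 3 each), and its log2 fold change was -0.01 (adjusted p = 0.995 in limma). The level of bonsai was 127.9 ± 1.59 TPM with overexpression and 129.8 ± 6.23 TPM in controls (SD, n = 3 each), and its log2 fold change was -0.02 (adjusted p = 0.976 in limma). Both lay above the median of the 73 and within their range, and in both the groups overlapped. The symbols listed for the RNAs of the mitochondrial ribosome matched no row of the deposited table, so these RNAs were not analysed here.

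Genes that work with the mitochondrial ribosome gave 0 calls as well. Of 9 translation factors, 0 were called, 4 had a positive and 5 a negative log2 fold change, and the median was -0.01. The release factor gene mRF1 had 30.44, 37.74 and 32.12 TPM with overexpression and 39.90, 34.19 and 38.07 TPM in controls. The initiation factor gene mIF2 had 16.40, 17.36 and 16.60 TPM with overexpression and 14.95, 15.10 and 15.92 TPM in controls. The groups overlapped in mRF1 and did not in mIF2, where overexpression was higher. The 2 largest differences in each direction were -0.16 in mRF1, -0.04 in mIF3, 0.12 in mIF2 and 0.06 in mEFTu2, on the log2 scale. Their adjusted p in limma lay between 0.884 and 0.966.

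Of 15 mitochondrial aminoacyl-tRNA synthetases, which charge the tRNAs used by the ribosome, 0 were called, 4 had a positive and 11 a negative log2 fold change, and the median was -0.02. The largest differences were -0.15 in ProRS-m, -0.13 in ValRS-m, 0.08 in GluRS-m and 0.04 in AsnRS-m. These genes had a median level of 23.4 TPM, under that of the ribosomal proteins. Of 11 genes of mitochondrial DNA maintenance and expression, 0 were called, 5 had a positive and 6 a negative log2 fold change, and the median was -0.01. The largest differences were -0.14 in tam, the catalytic subunit of the mitochondrial DNA polymerase, -0.08 in mtSSB, 0.06 in bsf and 0.06 in mTTF. Of 5 regulators of mitochondrial biogenesis and growth, 0 were called, and 3 had a positive and 2 a negative log2 fold change. The largest were 0.20 in Myc (limma, adjusted p = 0.887), 0.04 in REPTOR-BP, -0.07 in Ets97D (limma, adjusted p = 0.948) and -0.000813 in ewg. Myc had 53.07, 70.05 and 51.26 TPM with overexpression and 48.97, 45.14 and 55.89 TPM in controls, so its groups overlapped. Values of these lists are given beside the 73 as a description, without a test of a list.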

How the data were processed

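The authors deposited 1 table with a TPM value for each of 17457 features in each of 6 samples, per the file headers. Only STAR is named in the submitters' processing notes; the counter, build and annotation are not given in the sources used here. TPM keeps no depth, so no counting interval was computed. The deposited log2 fold change, log2 CPM, p-value and FDR are the authors' own comparison, per the file headers. Samples were grouped by title, and 0 value columns lacked a sample.

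Features with a mean of at least 1 TPM were tested as log2(TPM + 1), which understates the change of low genes, with limma 3.58.1 in R 4.3.3 (group term, mean-variance trend, all 6 samples, two-sided, Benjamini-Hochberg over 7855 features). The fit was tested on simulated data, where it recovered 60.5% of log2 changes of 0.5 and 90% of log2 changes of 1. Changes under 0.5 were not simulated. Python 3.11.15, pandas 2.3.3, numpy 2.4.6 and matplotlib 3.10.9 were used otherwise. Nothing says that samples came from separate crosses or flies, so p-values measure the spread between samples, which may be technical.

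The members and lists were chosen with earlier results of these data known. The named genes were the 6 highest and 6 lowest by level, the 6 largest differences in each direction, those with an unadjusted p under 0.05, the highest and lowest of each class and the mRpS18 genes. Of pathway lists, called genes and the 2 largest differences in each direction were named. Other genes named were chosen after their values were seen.

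In the labels each replicate has a batch of the same number, which would pair the samples, but the labels do not state a paired analysis. Deviations of same-numbered samples from their group means correlated at -0.06, -0.06 and 0.21 over the tested features. Between samples of different numbers the correlations lay between -0.23 and 0.26. The alternatives were pseudocount 0.1, all rows but those at 0 in every sample, a mean of at least 5 TPM, trimmed mean scaling (30% trimmed from each end), quantile normalization, no trend, the batch block and leaving out each sample.

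Identifiers and positions were taken from the deposited table. In the Ensembl annotation of BDGP6.54, 72 of the 73 matched by identifier and 1 by symbol and place, and all 73 had the same coordinates.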

Additional observations from a re-analysis of the deposited data

How the results depend on the processing

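The count of called mitochondrial ribosomal protein genes was 0 in the main analysis and under all 13 alternatives, with adjusted p down to 0.112. Their median log2 fold change kept its sign, from -0.03 to -0.01. The count at an unadjusted p under 0.05 was 4. It was 6 with trimmed mean scaling, 5 with no filter on low values, 3 with no trend and 1 with the replicate block. With a sample left out it ran from 1 to 5, with 1 without control sample 1 or without control sample 3. The block changed no other call among the 73. Called features over the whole table numbered 22, 13 with no filter on low values and from 11 to 27 when a sample was left out, with 11 without control sample 1 and 14 without control sample 3. Signs among the 73 also depended on the scaling, with 25 genes higher in the main analysis, 32 with trimmed mean scaling and 34 under quantile normalization. For 25 named genes, mostly extremes of level or difference, 9 of 325 results changed sign, all when a sample was left out. The log2 fold change then ran from -0.153 to 0.0462 for mRpS5, from -0.0570 to 0.0377 for mRpS10, from -0.0126 to 0.0824 for mRpL41, from -0.0122 to 0.0784 for mRpS21, from -0.0820 to 0.0131 for mRpS30, from -0.00856 to 0.0419 for mRpS31 and from -0.00154 to 0.0834 for mRpL50. The cause was not tested. The depth behind these TPM values is unknown, so the precision rests on replicate spread. In the main fit limma drew that spread toward a mean-variance trend over all tested features.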

Other observations

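The neighbours of the 4 genes with an unadjusted p under 0.05 were read as 5 tested features on either side, a choice made after the values were seen. Over all tested features 55.96% had a negative log2 fold change, with 53.4% on X and 57.4% on 3L. An unadjusted limma p under 0.05 was found in 6.58% of all tested features. Around mRpL14 on X, 4 of the 10 neighbours had a negative log2 fold change on the log2(TPM + 1) scale, and the values lay between -0.07 and 0.60. Among them, the insulin-like peptide gene Ilp6, averaged 7.29 TPM with overexpression and 4.50 TPM in controls (log2 fold change 0.60, limma adjusted p = 0.226). The basement membrane gene trol averaged 28.2 TPM with overexpression and 21.5 TPM in controls (log2 fold change 0.37, limma adjusted p = 0.496). Ilp6 and trol were the 2 of the 10 with an unadjusted limma p under 0.05. The mitochondrial ribosomal protein gene tko is also among these 10.

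Around mRpL21 on 3L all 10 neighbours had a negative log2 fold change, from -0.15 to -0.02, and 0 of them had an unadjusted limma p under 0.05. Around mRpL46 the log2 fold change was negative in 7 of 10, and around mRpS25 in 6 of 10, where that of nmdyn-D6 was -0.00895 with a mean of 20.17 TPM with overexpression and 20.12 TPM in controls. Near mRpL46, CG12018 averaged 61.2 TPM with overexpression and 68.6 TPM in controls (log2 fold change -0.16, limma adjusted p = 0.582). CG12018 was the only 1 of these 10 neighbours with an unadjusted limma p under 0.05, and around mRpS25 there were 0.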
